A study of Homo sapiens with 4 samples.

Results

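S100 proteins are small calcium sensors, and 8 of their genes (S100P, S100A4, S100A6, S100A10, S100A11, S100A13, S100A14 and S100A16) were followed here across parental, drug-treated and drug-resistant prostate cancer cells. The 8 genes were found by symbol among the 33538 genes of the count matrices, which name 21 S100 genes in all. The symbols were chosen by their levels and shares of positive cells in these same 4 libraries, so the levels and ratios of the 8 genes below are a description and carry no test.

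Each S100 protein folds into a pair of EF-hand loops that take up calcium, and most work as dimers that open on calcium binding and grip a target protein. Inside the cell these targets include annexins at the membrane, myosin and other parts of the cytoskeleton, while some S100 proteins are also released and bind the receptor RAGE. In carcinomas the family is best known for S100P and S100A4, which have been tied to invasion and metastasis, and in healthy prostate epithelium its members differ between basal and luminal cells.

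To set short treatment beside acquired resistance, transcripts were counted in single cells (scRNA-seq) of LNCaP, a human prostate cancer line that grows in response to androgen, and on lines derived from it. Enzalutamide (ENZ) is a drug that blocks androgen signalling in prostate cancer. LNCaP cells received the solvent DMSO at 0.1% for 48 h, LNCaP-ENZ48 cells received 10 µM ENZ for 48 h, and RES-A and RES-B, resistant lines that were derived from LNCaP by long exposure to drugs of this kind, were grown in 10 µM ENZ. All cells were sorted as living cells, and each group is 1 library of 1 line, so no difference has a replicate check and line, culture and library cannot be told apart.

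After filtering, 14727 cells were kept, between 1782 and 4569 per library, with 50208831 to 60838227 UMIs (unique molecular identifiers, each marking 1 captured RNA molecule). The median cell held 27079.5 UMIs in LNCaP and between 12138 and 13676 in the other libraries, so the share of cells with a UMI is given after thinning every cell to 5000 UMIs, with the share before thinning beside it. Pairs of libraries shared between 2 and 12 cell barcodes. The markers matched the label of a prostate cancer line, since all 10 luminal markers were detected in every library while the basal markers KRT5, KRT15 and TP63 and the leukocyte markers PTPRC and CD3E were at 0 in all 4 libraries. No cell type that should lack an S100 gene was present, so a background share from free RNA could not be measured.

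S100P lies by itself on chromosome 4 (GRCh38, chr4:6693878-6697170, plus strand), and the other 7 genes lie within 1649 kb of chromosome 1. Stretches before the start sites of 4 genes are shown because S100P and S100A10 were the members lower in both resistant lines and S100A4 and S100A11 hold starts of a like kind. S100P and S100A4 have a TATA box and few CG pairs, while S100A10 and S100A11 have many CG pairs. Each run gives the 100 bases before the RefSeq start (GRCh38.p14), 5′ to 3′ on the strand of the gene, with CG pairs in capitals. S100P is chr4:6693778-6693877 (plus), S100A4 chr1:153545807-153545906, S100A10 chr1:151993860-151993959 and S100A11 chr1:152037005-152037104 (all minus).
S100P: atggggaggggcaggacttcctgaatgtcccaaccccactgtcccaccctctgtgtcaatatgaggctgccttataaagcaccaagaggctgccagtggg
S100A4: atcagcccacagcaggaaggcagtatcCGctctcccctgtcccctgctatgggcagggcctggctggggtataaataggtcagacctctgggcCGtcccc
S100A10: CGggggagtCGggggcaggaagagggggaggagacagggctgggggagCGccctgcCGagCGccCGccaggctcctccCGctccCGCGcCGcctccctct
S100A11: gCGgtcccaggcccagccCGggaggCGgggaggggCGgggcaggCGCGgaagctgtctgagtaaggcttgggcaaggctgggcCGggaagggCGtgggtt

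The letters TATAAA begin 28 bases before the start in S100P and 31 bases before it in S100A4. In windows of 300 bases around the start (250 before, 50 after), S100P held 5 CG pairs, S100A4 8, S100A14 5, S100A6 31, S100A10 32 and S100A11 22, against a median of 14 over 35116 promoters. The 8 genes matched 11 RefSeq starts, since S100A13 has 3 (19, 11 and 12 CG pairs) and S100A16 has 2 (3 and 8). TATAAA or its reverse TTTATA was in the windows of S100P, S100A4 and 1 of the starts of S100A13, and in 11.5% of all promoters. A GC box (GGGCGG or CCGCCC), present in 45% of all promoters, was in those of S100A6, S100A10, S100A11, 1 start of S100A13 and 1 of S100A16. The AP-1 letters TGACTCA or TGAGTCA, present in 4.95% of all promoters, were in no window of the 8 genes, which says only that these letters are not there.

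The members differed widely in level. S100A11 was the most abundant member in every library. Of the UMIs of all 21 S100 genes of the matrices, it held 75.4% in LNCaP and 76.6% in LNCaP-ENZ48, with 80.3% for RES-A and 87.6% for RES-B. S100P held 14.7% in LNCaP and 10.7% in LNCaP-ENZ48, but 1.35% in RES-A and 0.376% in RES-B. Together, the 21 S100 genes gave 555 CPM (UMIs scaled to a common library total) in LNCaP and 519 in LNCaP-ENZ48, with 431 for RES-A and 627 for RES-B. A UMI counts 1 molecule tagged at its 3′ end, so levels of different genes can be set side by side without dividing by length. Brackets below hold exact 95% Poisson intervals for levels and exact conditional intervals for ratios, and both cover counting error only.

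**Figure D1:**
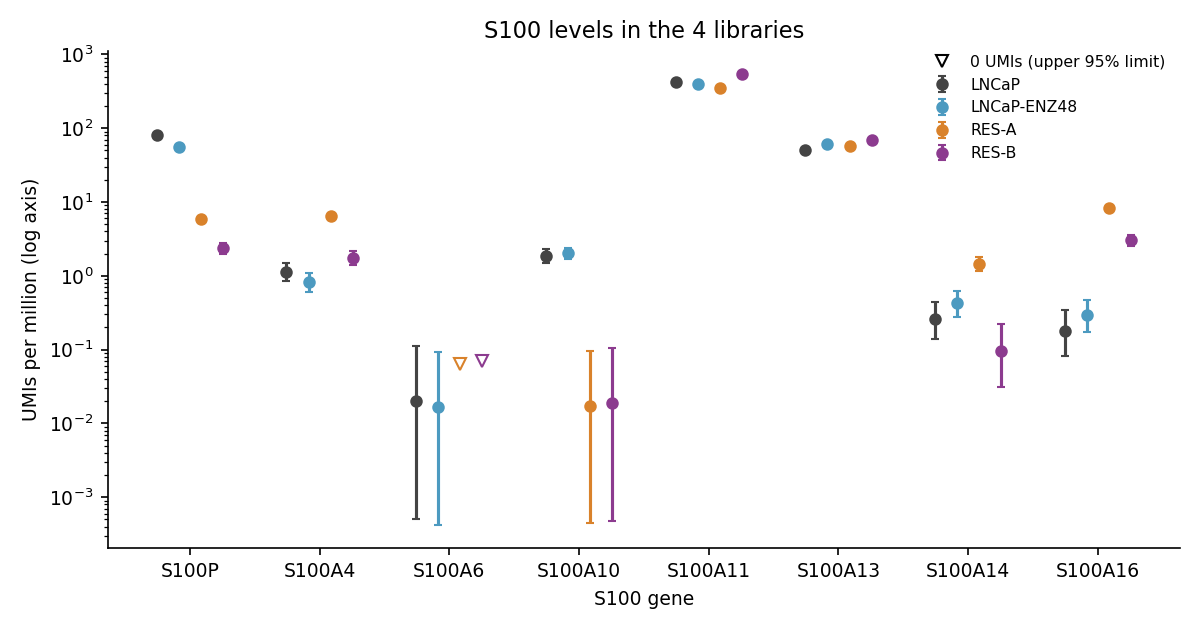
Level of each S100 gene (x axis) in CPM on a log axis, for the 4 libraries, 1 per group, with exact 95% Poisson intervals as bars and open triangles at the upper limit where a library held 0 UMIs. S100P stands at 81.8 in LNCaP and 2.36 in RES-B, S100A16 stands at 0.179 in LNCaP and 8.41 in RES-A, and S100A11 stays between 346 and 549.

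S100P, a calcium-binding protein first found in placenta and known to bind ezrin and RAGE, was lower in both resistant lines than in either LNCaP library. Its level (ENSG00000163993) was 81.8 CPM [79.3, 84.3] in LNCaP from 4105 UMIs and 55.5 CPM [53.7, 57.4] in LNCaP-ENZ48 from 3379 UMIs. It was 5.83 CPM [5.22, 6.48] in RES-A from 334 UMIs and 2.36 CPM [1.96, 2.81] in RES-B from 124 UMIs. LNCaP stood first, then LNCaP-ENZ48, then RES-A and last RES-B, and no neighbouring intervals overlapped.

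Against LNCaP, the log2 ratio of S100P was -0.56 [-0.62, -0.49] in LNCaP-ENZ48. It was -3.81 [-3.98, -3.65] in RES-A, a 14-fold lower level, and -5.12 [-5.38, -4.86] in RES-B, a 34.7-fold lower level. RES-B was 2.47-fold below RES-A (log2 ratio -1.30 [-1.61, -1.0]). The 3 ratios against LNCaP share that library and are therefore not independent of each other.

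S100P was unevenly spread over cells. At 5000 UMIs per cell it was detected in 13.5% [11.9, 15.1] of LNCaP cells, 9.85% [8.98, 10.8] of LNCaP-ENZ48 cells, 2.58% [2.14, 3.08] of RES-A cells and 0.911% [0.642, 1.25] of RES-B cells (exact binomial intervals). Before thinning the shares were 31.2%, 15.8%, 4.99% and 2.54%. The single cell with the most S100P held 173 UMIs in LNCaP and 96 in LNCaP-ENZ48, with 7 for RES-A and 6 for RES-B.

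In thinned LNCaP cells the variance of S100P was 5.88 times its mean, and 86.5% of cells had none, where a Poisson spread at the same mean would leave 69.4% without. In LNCaP-ENZ48 the variance was 4.48 times the mean and 90.2% of cells had none, against 78.0% for a Poisson spread. In RES-A the variance was 1.39 and in RES-B 1.19 times the mean, at means of 0.0313 and 0.00985 UMIs against 0.365 in LNCaP. This ratio nears 1 as the mean falls, so it cannot show whether S100P clumped less in the resistant lines. The tenth of LNCaP cells richest in S100P held 90.6% of its thinned UMIs. For S100A11 the same ratio of variance to mean was between 1.18 and 1.38, and for S100A13 between 1.03 and 1.09. Within LNCaP and LNCaP-ENZ48, S100P was thus more clumped than S100A11 and S100A13.

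Cells with at least 5 thinned S100P UMIs numbered 37 in LNCaP (2.08%) and 60 in LNCaP-ENZ48 (1.39%). None was seen among 4569 RES-A or 4061 RES-B cells, which allows a share of up to 0.0657% and 0.0739% by a limit of 3 counts, or 0.0807% and 0.0908% by the upper end of the exact 95% binomial interval. Cells with 10 or more were 11 in LNCaP (0.617% [0.309, 1.10]) and 5 in LNCaP-ENZ48 (0.116% [0.0376, 0.270]). The lower S100P sums of RES-A and RES-B thus came with fewer positive cells and with fewer UMIs in the cells that had any.

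**Figure D2:**
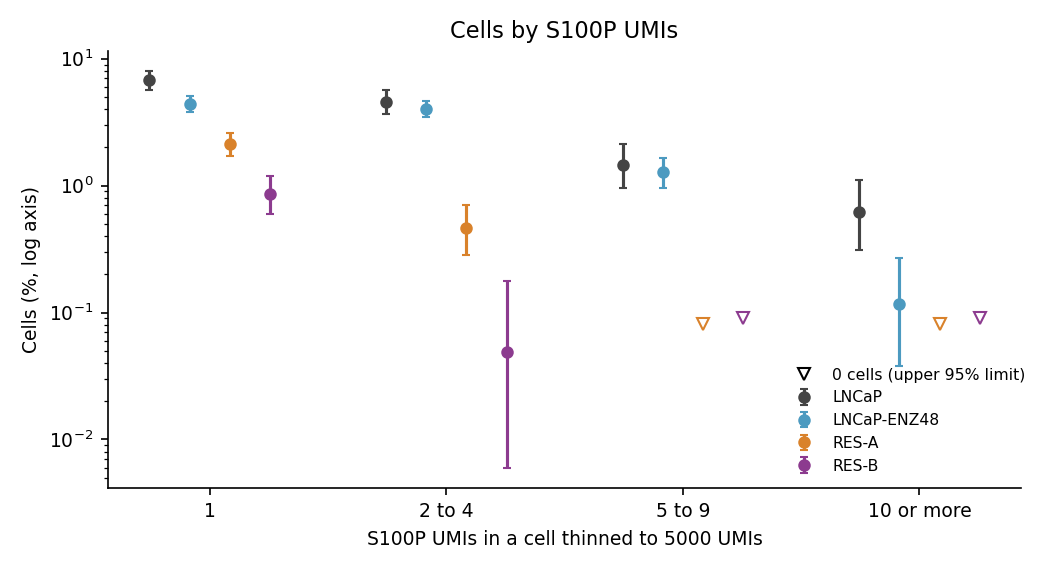
Percent of cells (y axis, log) by the number of S100P UMIs in a cell thinned to 5000 UMIs (x axis), for the 4 libraries, with exact 95% binomial intervals and open triangles at the upper limit where no cell was found. RES-A and RES-B have no cell with 5 or more, whereas LNCaP and LNCaP-ENZ48 have 37 and 60.

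S100P-positive cells differed from S100P-negative cells of the same library in other genes. Among thinned LNCaP cells, S100A11 stood at 537 CPM of thinned UMIs in the 240 cells with S100P and at 408 in the 1542 without. In LNCaP-ENZ48 the values were 494 in 425 cells and 381 in 3890 cells. In RES-A (329 against 347, 118 positive cells) and RES-B (530 against 554, 37 positive cells) S100A11 was no higher in the positive cells.

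Androgen-driven genes differed in direction between these cells. KLK3, the androgen-driven gene of prostate-specific antigen, was at 982 CPM in S100P-positive and 689 in S100P-negative LNCaP cells, and at 162 and 97.7 in LNCaP-ENZ48. KLK2, another androgen-driven kallikrein, was lower in the positive cells, at 282 and 342 in LNCaP and at 7.53 and 31.7 in LNCaP-ENZ48. SYT4, a synaptotagmin of secretory vesicles, was at 171 and 57.2 in LNCaP and 245 and 85.8 in LNCaP-ENZ48, and GSTA1, a glutathione transferase, at 47.5 and 11.4 and at 79.1 and 17.6. Across cells the correlation of S100P with SYT4 was weak (Pearson r 0.175 over 1782 LNCaP cells and 0.145 over 4315 LNCaP-ENZ48 cells) and is given as a description only. KLK2 and KLK3 are near copies of each other, so their levels are uncertain. The positive cells were slightly deeper before thinning, with a median of 28682 against 26740 UMIs in LNCaP and 15021 against 13521 in LNCaP-ENZ48, and the part of depth in these differences was not tested.

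The level of S100P also varied with the cell cycle phase called for a cell. In LNCaP it was 95.9 CPM in G1, 32.7 in S and 59.2 in G2/M cells, and in LNCaP-ENZ48 65.3, 10.3 and 19.2, so G1 cells had the most. In RES-A the values were 5.19, 2.37 and 10.0 and in RES-B 1.79, 1.31 and 4.81, so G2/M cells had the most. The G1 and G2/M intervals did not overlap in any library, although counting intervals are too narrow for a gene that clumps in few cells.

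The share of thinned cells with S100P was also read by phase. In LNCaP, S100P was found in 14.1% [12.2, 16.1] of G1 and 14% [10.5, 18.1] of G2/M cells, and in LNCaP-ENZ48 in 10.8% [9.79, 11.9] and 7.10% [5.08, 9.62]. In RES-A it was found in 2.28% [1.78, 2.87] of G1 and 4.49% [3.24, 6.04] of G2/M cells, and in RES-B in 0.865% [0.561, 1.27] and 1.20% [0.552, 2.27]. G1 cells made up 71.0% of LNCaP and 81.3% of LNCaP-ENZ48, with 66.3% for RES-A and 71.2% for RES-B. Among G1 cells alone, the log2 ratio of S100P against LNCaP was -4.21 in RES-A and -5.74 in RES-B, farther from 0 than over all cells.

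**Figure D3:**
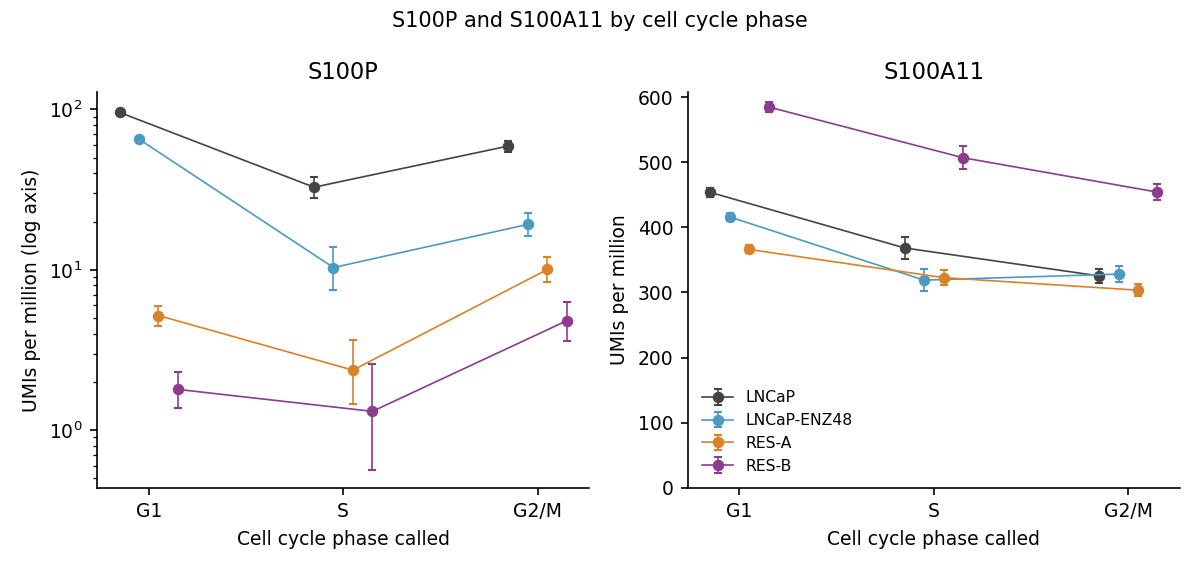
Level of S100P (left, CPM on a log axis) and S100A11 (right, linear axis from 0) in cells called G1, S or G2/M, with 1 line per library and exact 95% Poisson intervals. S100P is highest in G1 in LNCaP and LNCaP-ENZ48 and in G2/M in RES-A and RES-B, while S100A11 is highest in G1 in all 4.

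S100A11, which binds annexin A1 and takes part in membrane repair and growth control, was present in nearly all cells. Its level (ENSG00000163191, chr1:152032506-152047907, minus strand) was 418 CPM [412, 424] in LNCaP and 398 [393, 403] in LNCaP-ENZ48, with 346 [341, 351] for RES-A and 549 [543, 555] for RES-B. At 5000 UMIs it was detected in 84.1%, 82.9%, 79.2% and 90.1% of cells, and before thinning in 95.6% to 99.8%. The resistant lines lay on either side of LNCaP, with RES-A lowest and RES-B highest.

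The log2 ratio of S100A11 against LNCaP was -0.27 [-0.30, -0.24] in RES-A and 0.39 [0.37, 0.42] in RES-B, and RES-B was 1.59-fold above RES-A (0.67 [0.64, 0.69]). In LNCaP-ENZ48 it was -0.07 [-0.10, -0.04], a direction that turned to 0.03 when the libraries were scaled by TMM or by DESeq2 size factors. G1 cells held the most S100A11 in each library. It stood at 454 CPM in G1 and 325 in G2/M cells of LNCaP and at 416 and 328 in LNCaP-ENZ48, with 366 and 304 for RES-A and 585 and 454 for RES-B. Processed pseudogenes of S100A11 lie on chromosomes 7 and X, so the level is uncertain to the extent that reads matched them, which a ratio between libraries shares.

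S100A13, which helps to release fibroblast growth factor 1 from cells, was the steadiest of the 7 measured members across libraries. Its level (ENSG00000189171, chr1:153618787-153631360, minus strand) was 50.6 CPM [48.6, 52.6] in LNCaP and 61.5 [59.6, 63.5] in LNCaP-ENZ48, with 58.3 [56.3, 60.3] for RES-A and 69.2 [67.0, 71.5] for RES-B. Only the intervals of LNCaP-ENZ48 and RES-A overlapped. The log2 ratios against LNCaP were 0.28 [0.21, 0.36], 0.20 [0.13, 0.28] and 0.45 [0.38, 0.53], and that of RES-B against RES-A was 0.25 [0.18, 0.32]. S100A13 was detected in 24.1%, 25.5%, 24.9% and 29.6% of thinned cells. S100A1 overlaps it on the opposite strand and held only 5 to 9 UMIs per library.

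S100A10, which joins annexin A2 in a complex at the plasma membrane, was nearly missing from both resistant lines. It (ENSG00000197747, chr1:151982915-151993859, minus strand) gave 94 UMIs in 61 cells of LNCaP and 123 UMIs in 106 cells of LNCaP-ENZ48, but 1 UMI in 1 cell of RES-A and 1 UMI in 1 cell of RES-B. The levels were 1.87 CPM [1.51, 2.29], 2.02 CPM [1.68, 2.41], 0.0174 CPM [0.000442, 0.0972] and 0.0190 CPM [0.000482, 0.106]. The intervals of LNCaP and LNCaP-ENZ48 overlapped, as did those of RES-A and RES-B, while both resistant lines lay far below both LNCaP libraries.

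With 1 UMI behind each resistant value, the log2 ratios against LNCaP had wide intervals, -6.75 [-12.06, -4.23] for RES-A and -6.62 [-11.94, -4.11] for RES-B. For LNCaP-ENZ48 the ratio was 0.11 [-0.29, 0.51]. ANXA2, the partner of S100A10, was itself scarce, at 24 UMIs in LNCaP, 5 in LNCaP-ENZ48, 22 for RES-A and 37 for RES-B.

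The cells with S100A10 held more KLK3 than the others of their library. In LNCaP, KLK3 was at 1918 CPM in the 61 positive cells and 674 CPM in the rest, and was detected in 91.8% and 71.2% of them. In LNCaP-ENZ48 it was at 409 CPM in the 106 positive cells and 86.8 CPM in the rest, and was detected in 62.3% and 28.7%. The luminal keratin KRT18 was also higher, at 662 against 437 CPM in LNCaP and 609 against 428 CPM in LNCaP-ENZ48. Median depth was close (28391 against 27024 UMIs in LNCaP, 14549 against 13657 in LNCaP-ENZ48), and 85.2% of the LNCaP cells with S100A10 were called G1. The part of depth and phase in this was not tested.

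S100A16, a member found in many tissues, was rare in both LNCaP libraries and more frequent in both resistant lines. It (ENSG00000188643, chr1:153606886-153613145, minus strand) gave 9 UMIs in LNCaP and 18 in LNCaP-ENZ48, with 482 for RES-A and 159 for RES-B. The levels were 0.179 CPM [0.0820, 0.340], 0.296 CPM [0.175, 0.468], 8.41 CPM [7.67, 9.19] and 3.02 CPM [2.57, 3.53]. The intervals of the LNCaP libraries overlapped, and RES-A stood above RES-B.

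The log2 ratio of S100A16 against LNCaP was 5.55 [4.61, 6.69] in RES-A, a 46.9-fold higher level, and 4.08 [3.12, 5.23] in RES-B, a 16.9-fold higher level. In LNCaP-ENZ48 it was 0.72 [-0.51, 2.06], which includes 0. RES-B was 2.78-fold below RES-A (-1.47 [-1.74, -1.21]). S100A16 was detected in 0.224%, 0.116%, 4.01% and 1.43% of thinned cells in the same order of libraries, and in 0.505%, 0.417%, 8.69% and 3.50% before thinning. A cell held at most 3 UMIs of it.

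S100A4, known as metastasin and a partner of non-muscle myosin, was highest in RES-A. Its levels (ENSG00000196154, chr1:153543613-153550136, minus strand) were 1.14 CPM [0.860, 1.47] in LNCaP from 57 UMIs, 0.822 [0.610, 1.08] in LNCaP-ENZ48 from 50, 6.44 [5.80, 7.13] in RES-A from 369 and 1.75 [1.41, 2.15] in RES-B from 92. RES-A stood apart, while the intervals of LNCaP overlapped those of LNCaP-ENZ48 and RES-B. The log2 ratio against LNCaP was 2.50 [2.10, 2.93] in RES-A (5.67-fold higher), 0.62 [0.13, 1.13] in RES-B and -0.47 [-1.04, 0.11] in LNCaP-ENZ48. RES-B was 3.68-fold below RES-A. S100A4 was detected in 0.954%, 0.440%, 3.44% and 0.985% of thinned cells and in 3.09%, 1.14%, 7.33% and 2.24% before thinning.

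S100A14, an epithelial member, was also highest in RES-A but was lowest in RES-B. It (ENSG00000189334, chr1:153614255-153616986, minus strand) gave 13 UMIs in LNCaP and 26 in LNCaP-ENZ48, with 84 for RES-A and 5 for RES-B, or 0.259 CPM [0.138, 0.443], 0.427 [0.279, 0.626], 1.46 [1.17, 1.81] and 0.0951 [0.0309, 0.222]. The log2 ratio against LNCaP was 2.50 [1.65, 3.47] in RES-A and -1.44 [-3.29, 0.13] in RES-B, although that interval includes 0. RES-B was 15.4-fold below RES-A (-3.95 [-5.60, -2.67]).

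S100A6, known as calcyclin and often abundant in epithelial cells, was all but undetected. It (ENSG00000197956, chr1:153534599-153536244, minus strand) gave 1 UMI in LNCaP, 1 in LNCaP-ENZ48 and 0 in both resistant lines. In RES-A, 0 of 4569 cells allows a share of up to 0.0657% of cells with a UMI by the same limit of 3 counts, and in RES-B 0 of 4061 cells allows up to 0.0739% (exact upper limits 0.0807% and 0.0908%). No ratio was formed for it.

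Of the set as a whole, 7 of the 8 members could be compared with LNCaP. In LNCaP-ENZ48, 0 of 7 were at least 2-fold higher and 0 of 7 at least 2-fold lower, against 3.2% and 6.06% of all genes with at least 10 UMIs over the 4 libraries. In RES-A, 3 of 7 were higher (S100A4, S100A14 and S100A16; background 14.7%) and 2 of 7 lower (S100P and S100A10; background 11.1%). In RES-B, 1 of 7 was higher (S100A16; 13.2%) and 3 of 7 lower (S100P, S100A10 and S100A14; 10.4%), the last with an interval that includes 0 and a log2 ratio of -0.05 among G1 cells alone, which leaves 2 lower. Between the resistant lines, 0 of 6 were higher in RES-B (8.97%) and 4 of 6 lower (S100P, S100A4, S100A14 and S100A16; 9.45%).

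Since the members were listed with these values known, nothing is read from these counts beyond which genes they name. Among genes whose mean reached 10 CPM, as S100P, S100A11 and S100A13 did, the shares higher and lower were 0.335% and 0.563% in LNCaP-ENZ48, 3.71% and 4.24% in RES-A, 4.73% and 3.12% in RES-B, and 3.46% and 1.7% for RES-B against RES-A. The median log2 ratio over the measured members was 0.11, 0.20, 0.39 and -1.39 in these 4 comparisons, and over all genes with at least 10 UMIs -0.09, 0.04, 0.10 and 0.06. Members thus spread in both directions in RES-A and RES-B, and their median hides ratios from -6.75 to 5.55.

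**Figure D4:**
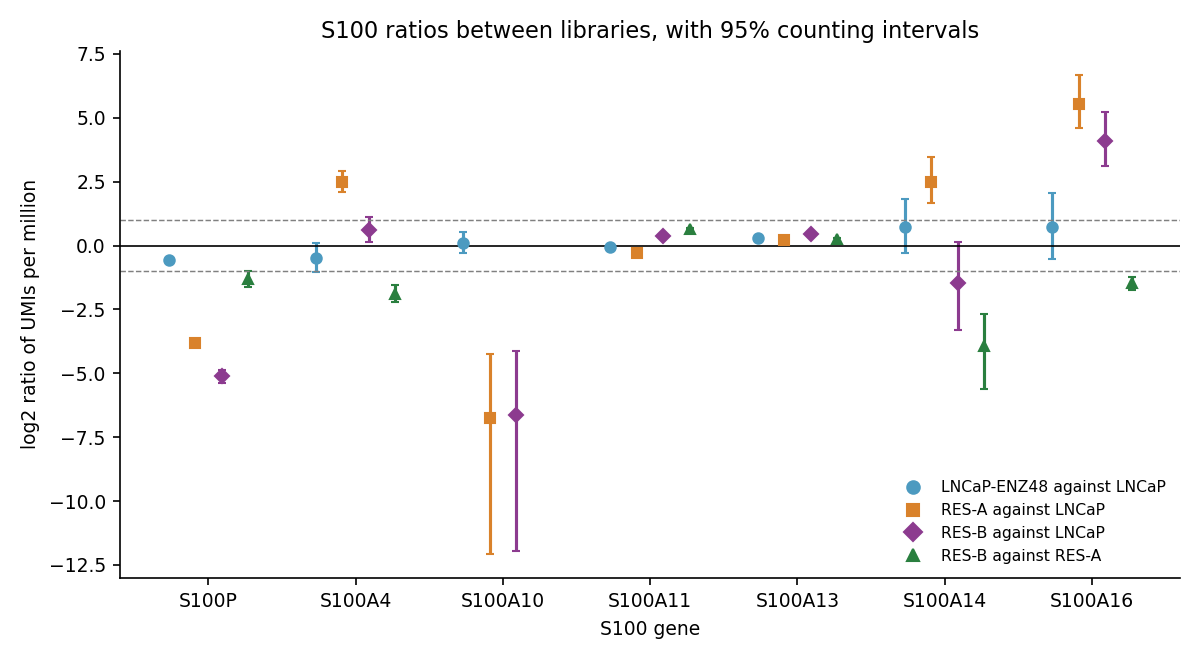
log2 ratio of CPM (y axis) of 7 S100 genes (x axis) in 4 comparisons of libraries, with exact 95% conditional intervals, a solid line at 0 and dashed lines at a 2-fold difference. S100P and S100A10 lie below the lower dashed line in RES-A and RES-B, S100A16 lies above the upper one in both, and S100A6 was too rare to plot.

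The members that were higher in RES-A were seldom detected in the same cell, although at this depth a cell without a UMI may still express the gene. Of 335 RES-A cells with S100A4 and 397 with S100A16, 31 had both, so 9.25% of the S100A4 cells had S100A16, against 8.69% of all RES-A cells. Of 70 cells with S100A14, 12 had S100A16 (17.1%) and 7 had S100A4 (10.0%, against 7.33% of all cells). Deeper cells show more genes, and the S100A16 cells had a median of 13577 UMIs against 12050 in the rest, so these overlaps are descriptions.

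On chromosome 1 the log2 ratios against LNCaP changed from gene to gene. S100A10 and S100A11, separated by 38.6 kb, had ratios in RES-B of -6.62 and 0.39. S100A16 and S100A14, separated by 1.11 kb, had ratios of 5.55 and 2.50 in RES-A, but 4.08 and -1.44 in RES-B. The S100A14 value in RES-B rests on 5 against 13 UMIs, and its interval [-3.29, 0.13] includes 0. S100A14 and S100A13, separated by 1.80 kb, had 2.50 and 0.20 in RES-A. S100A6 and S100A4, separated by 7.37 kb, differed in that only S100A4 was detected beyond 1 UMI in a library.

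The 50 nearest expressed protein-coding genes around the chromosome 1 group had a median log2 ratio of -0.04 for LNCaP-ENZ48, -0.09 for RES-A and 0.34 for RES-B, where all expressed protein-coding genes had -0.08, 0.02 and 0.12. In RES-B the values of S100A11 (0.39) and S100A13 (0.45) were close to that of these neighbours. In RES-A, S100A11 (-0.27) and S100A13 (0.20) lay on either side of it. In LNCaP-ENZ48, S100A11 (-0.07) was close to it and S100A13 (0.28) above it. Around S100P the 50 nearest genes had medians of -0.18, 0.07 and 0.07, with S100P itself at -0.56, -3.81 and -5.12.

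**Figure D5:**
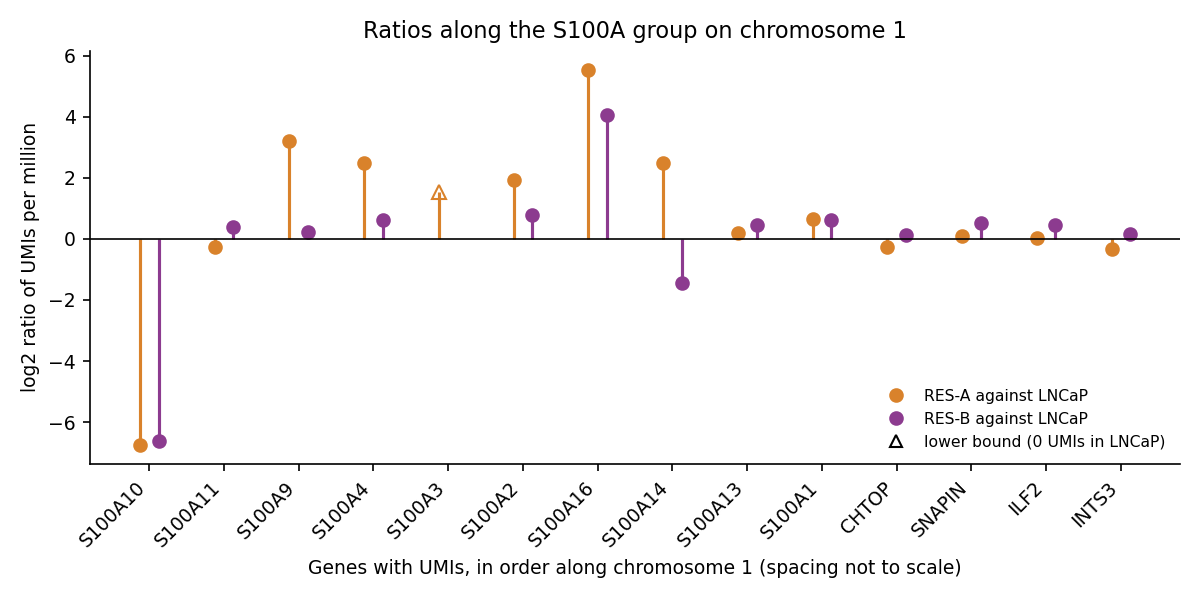
log2 ratio of CPM (y axis) in RES-A and RES-B against LNCaP for genes of the S100A region with UMIs, in their order along chromosome 1 (x axis, spacing not to scale), with an open triangle for a lower bound. S100A10 and S100A16 stand out in opposite directions in both lines. S100A14 points up in RES-A and down in RES-B, the latter from 5 against 13 UMIs with an interval that includes 0.

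Of the other 12 S100 genes of the list used for comparison, 4 could be compared in RES-A. Of these, 3 were at least 2-fold higher there and 0 lower, where 14.7% and 11.1% of all genes with at least 10 UMIs were. S100A3 could be compared only through its RES-A count, so nothing is read from these counts beyond which genes they name. S100A9, a partner of S100A8 in myeloid cells and inflamed epithelium, gave 9 UMIs in LNCaP and 6 in LNCaP-ENZ48, but 96 in RES-A, where the log2 ratio was 3.22 [2.24, 4.4], and 11 in RES-B. S100A2, a basal epithelial member, gave 32, 30, 138 and 58 UMIs (1.92 [1.35, 2.52] in RES-A). S100A3 was found only in RES-A, with 10 UMIs, at least 2.92-fold higher than the floor of 3 UMIs in LNCaP, and it lies inside the span of S100A4 on the same strand, so its reads are uncertain. In LNCaP-ENZ48 and RES-B, 0 of the 3 that could be compared were past 2-fold in either direction. S100A8, S100A7, S100A7A, S100A7L2, S100A12, S100A5 and S100Z had 0 UMIs in all libraries.

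Among 17 genes for partners of S100 proteins, 16 could be compared with LNCaP. In LNCaP-ENZ48, 1 was at least 2-fold higher (SYT1) and 1 lower (ANXA2, -2.54 [-4.29, -1.12]). In RES-A, 2 were higher (ANXA1 and AHNAK) and 1 lower (SYT1), and in RES-B 2 were higher (ANXA1 and CACYBP) and 1 lower (SYT1). Of all genes with at least 10 UMIs, 3.2% were higher and 6.06% lower in LNCaP-ENZ48, 14.7% and 11.1% in RES-A, and 13.2% and 10.4% in RES-B. Beside these shares, 2 of 16 is near the background of the resistant lines. A mean of 10 CPM or more was reached by 12 of the 17, including AHNAK and CACYBP but not ANXA1 or SYT1. Of all genes at that level, 3.71% were higher and 4.24% lower in RES-A, and 4.73% and 3.12% in RES-B. SYT1 rested on 17 UMIs in LNCaP and 2 to 42 in the others. The list median was -0.05, 0.23 and 0.44 in the 3 comparisons, beside -0.09, 0.04 and 0.10 over all genes with at least 10 UMIs.

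ANXA1, the annexin bound by S100A11, gave 8 UMIs in LNCaP and 5 in LNCaP-ENZ48 but 210 in RES-A and 45 in RES-B. Its log2 ratio was 4.52 [3.52, 5.75] for RES-A and 2.43 [1.33, 3.72] for RES-B. AHNAK, a large scaffold protein bound by S100A10 with annexin A2, was at 14.3 CPM in LNCaP and 35.2 CPM in RES-A (1.30 [1.18, 1.42]). CACYBP, the calcyclin-binding protein named for S100A6, was at 123 CPM in LNCaP, 230 in RES-A and 256 in RES-B, although S100A6 itself was nearly absent. ANXA5, ANXA6, ANXA11, the membrane linker EZR, the scaffold IQGAP1, the myosin MYH9, S100PBP and STUB1 stayed within 2-fold of LNCaP in all 3 comparisons.

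For calcium-binding EF-hand genes outside the family, 18 of 18 could be compared. In RES-A, 0 were at least 2-fold higher and 2 lower (CALM3 and CALU, at -1.08 each), in RES-B 2 were higher (NUCB2 and EFHD1) and 0 lower, and in LNCaP-ENZ48 1 was higher (NUCB2) and 0 lower. Of all genes with a mean of 10 CPM or more, which 16 of the 18 reach, 3.71% were higher and 4.24% lower in RES-A, 4.73% and 3.12% in RES-B, and 0.335% and 0.563% in LNCaP-ENZ48. CALM3 is a calmodulin gene, and CALU encodes a calcium-binding protein of the secretory pathway. The list medians were 0.06, 0.04 and 0.25 for LNCaP-ENZ48, RES-A and RES-B, beside -0.07, 0.02 and 0.11 over all genes with a mean of 10 CPM or more.

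The genes with ratios most like those of a member were sought among 2383 genes averaging at least 50 CPM, by the largest absolute difference over the 3 log2 ratios against LNCaP, which share that library. GDF15, a secreted stress cytokine, came closest to S100P, with a largest difference of 1.37. It stood at 3877 CPM in LNCaP and 2278 in LNCaP-ENZ48, with 322 for RES-A and 289 for RES-B. DSEL and BTG1 followed. For S100A16 the closest was VIM, the mesenchymal filament gene, with 2.07, 2.09, 211 and 59.9 CPM (1.12), followed by PAGE1 and TMSB4X, the gene of an actin-binding peptide. The summed fibroblast list was at 3.70, 3.35, 1.57 and 2.47 CPM in the same order of libraries. Most of this was COL1A1 (83 to 181 UMIs per library), while COL1A2 was at 0 in every library. The source of the VIM difference was not tested.

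For S100A4 the closest was EIF1B, with 76.5, 82.8, 439 and 94.5 CPM and a largest difference of 0.58, ahead of HMGN5 and KLHL35. For S100A14 it was ADD3, a membrane skeleton protein gene, with 19.9, 17.1, 172 and 9.53 CPM (0.94), ahead of DDC and ASPH. S100A10 had no close match, since the nearest, GDF15, still differed by 3.15.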

How the data were processed

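The 4 libraries were made with the 10x 3′ v3 chemistry from sorted living cells. The deposited values are raw UMI counts per gene and barcode, which the authors made with Cell Ranger 3.0.2 against GRCh38, per the submitters' processing notes. Cells were filtered with the study's limits per library. LNCaP cells had 3000 to 7000 genes and 16000 to 50000 UMIs, and the others 1500 to 5000 genes and 5000 to 25000 UMIs, with mitochondrial limits of 15% to 20%. This kept 1782 of 2358, 4315 of 4812, 4569 of 5156 and 4061 of 4907 barcodes. Doublets were not removed.

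Counts were summed per library and scaled to CPM. Intervals were exact Poisson, binomial (Clopper-Pearson) or conditional binomial at 95%. UMIs were counted, but intervals still leave out variation between cultures, and with 1 library per group no test was run. Where a library held 0 UMIs, 3 were used as the floor, and no fold was formed where both values were at or under it. Cells were thinned to 5000 UMIs with a fixed seed. Phases were called on thinned cells with scanpy 1.11.5 and the Seurat lists (43 S and 54 G2/M genes). Interval coverage was tested on simulated counts. Positions came from GENCODE 44, where 33113 of 33538 gene IDs were found, and promoters from RefSeq. The gene list for named neighbours took, for each member with a 4-fold ratio, the 3 non-members closest in ratio. KLK2, KLK3, SYT4, GSTA1 and KRT18 were chosen after values were seen, as were the motifs.

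Alternatives were 1 filter for all libraries (1500 to 7000 genes, 5000 to 50000 UMIs, under 20% mitochondrial), no filter, scaling by TMM (edgeR 4.0.16) or DESeq2 1.42.0 size factors, G1 cells alone, leaving out the 5% of cells with the most UMIs, the mean over cells of their CPM, a 1.5-fold limit, thinning to 2000 UMIs, and other minimum levels. The members and gene lists were chosen with earlier results of these data known. Some genes of these lists are not reported here.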

Additional observations from a re-analysis of the deposited data

Results flagged for a closer look

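S100A11 pointed in opposite directions in the resistant lines, with a log2 ratio against LNCaP of -0.27 for RES-A and 0.39 for RES-B. Each value rests on 1 library, and the difference between the lines was not tested.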

How the results depend on the processing

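No paired analysis was possible because each group has 1 library and no result comes from a test. The 27 log2 ratios of members were recomputed under 7 alternatives. The direction reversed only for S100A11 in LNCaP-ENZ48 among ratios whose interval excluded 0, from -0.07 to 0.025 under TMM and to 0.031 under DESeq2 size factors, which moved the median of all expressed genes by 0.10 in that comparison (and by -0.11 under TMM in RES-B). S100A10 in LNCaP-ENZ48, whose interval includes 0, also changed sign with 1 filter or none. The largest move was 1.40, for S100A14 in RES-B, which went from -1.44 to -0.05 among G1 cells, so that 2 members in place of 3 were at least 2-fold lower there. With at least 50 UMIs in a library, it was 0.62, for S100P in RES-B among G1 cells.

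Members at least 2-fold higher in LNCaP-ENZ48 numbered 1 among G1 cells in place of 0. At a 1.5-fold limit they were 2 in LNCaP-ENZ48, 2 in RES-B, and 1 for RES-B against RES-A. With a minimum of 1 CPM, the percent of all genes at least 2-fold higher and lower was 0.746 and 1.21 in LNCaP-ENZ48, 7.89 and 6.86 in RES-A, 7.91 and 5.32 in RES-B, and 5.37 and 4.01 for RES-B against RES-A. With at least 10 UMIs over the libraries, a minimum added after seeing the data, it was 3.2 and 6.06, 14.7 and 11.1, 13.2 and 10.4, and 8.97 and 9.45. The cause was not tested.

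Depth limits S100A6, S100A10 in the resistant lines, S100A14 and the LNCaP and LNCaP-ENZ48 values of S100A16, which rest on at most 26 UMIs apart from 84 for S100A14 in RES-A. LNCaP was filtered at a higher UMI minimum than the other libraries, and the part of this in its greater depth per cell was not tested.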
